A study of Mus musculus with 8 samples.

Results

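The MOF peaks described here lay on an H3K4me3 peak and touched no H3K27Ac peak. MOF (KAT8) is the acetyltransferase that places an acetyl group on lysine 16 of histone H4. All libraries came from total epidermis of Wildtype mice at P0.5, postnatal day 0.5, and the labels name no deleted gene and no treatment. MOF was profiled by ChIPseq, and H3K4me3, H3K27Ac and the ciliary transcription factor Rfx2 by Cut&Run, an assay in which an antibody-tethered nuclease releases bound DNA. Members were chosen by measured values, their score and their overlaps with the other lists: a peak was a member when it lay on chromosomes 1 to 19, had a score under 8100, overlapped an H3K4me3 peak by at least 1 bp and overlapped no peak of the H3K27Ac list. The rule found 1127 members among 17196 MOF peaks on these chromosomes under that score, a share of 6.55% (background: all peaks compared), and among 17546 peaks in the whole list. The share depended on the strength asked of the marks: it was 2.66% with the stronger 50% of H3K4me3 peaks and 11.6% with the stronger 50% of H3K27Ac peaks. Of the other peaks, 5992 overlapped both marks, 699 overlapped H3K27Ac and no H3K4me3, and 9378 overlapped neither. Because measured overlaps chose the members, the presence of H3K4me3 and the lack of H3K27Ac are a description of them and not a finding.

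H3K4me3, trimethylation of lysine 4 of histone H3, marks nucleosomes around transcription start sites (TSSs), above all at CpG-rich promoters. H3K27Ac, acetylation of lysine 27, marks active promoters and enhancers. Promoters of developmental regulators that are silent in a tissue often keep H3K4me3 without H3K27Ac, and MOF is known as a factor of the promoters of broadly used genes.

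Each antibody contributed 1 list of peaks, so no replicate error could be had and no test between groups was made. Shares are given with exact binomial (Clopper-Pearson) 95% confidence intervals and medians with 95% order-statistic intervals, and a count of 0 with the share that 3 counts of the total would give. All of these cover the counting of peaks only, and peaks that lie close together or share a sequence are not independent. The peak lists hold no read counts, so no depth stands behind a single peak's value here. Peak heights depend on the antibody, so scores were compared within the MOF list and fold enrichments within the H3K4me3 list.

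The sequences below, all from mm10 (GRCm38.p6), were taken from members or from genes and promoters that members touched. The first windows are 150 bases inside 2 members with a TSS within 1 kb, on the plus strand, with every CpG dinucleotide in capitals. They are shown because Pdgfra encodes a growth factor receptor of dermal fibroblasts and Krt14 encodes the keratin of basal epidermal cells. They hold 8 and 4 CpGs.
Pdgfra, chr5:75156524-75156673: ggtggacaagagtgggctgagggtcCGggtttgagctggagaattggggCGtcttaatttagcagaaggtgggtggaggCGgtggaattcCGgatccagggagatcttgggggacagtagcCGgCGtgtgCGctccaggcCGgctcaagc
Krt14, chr11:100205471-100205620: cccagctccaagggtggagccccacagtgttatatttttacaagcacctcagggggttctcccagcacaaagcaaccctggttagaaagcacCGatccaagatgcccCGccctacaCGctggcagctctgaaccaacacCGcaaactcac
Windows of 120 bases inside 2 members without a TSS held the motif of CTCF, an insulator protein, in capitals, and the member nearest to Gm43568 held it at 2 places.
Gnb1 (nearest TSS), chr4:155481497-155481616: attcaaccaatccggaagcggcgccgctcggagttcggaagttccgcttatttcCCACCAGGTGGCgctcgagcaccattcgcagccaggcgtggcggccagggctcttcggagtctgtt
Gm43568 (nearest TSS), chr3:122638811-122638930: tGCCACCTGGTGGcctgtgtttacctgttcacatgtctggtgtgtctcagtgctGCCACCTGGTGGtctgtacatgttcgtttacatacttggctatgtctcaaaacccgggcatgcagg
Another member covered n-TScga3, a gene for a serine tRNA, whose internal B box is in capitals.
n-TScga3, chr11:69110889-69111030: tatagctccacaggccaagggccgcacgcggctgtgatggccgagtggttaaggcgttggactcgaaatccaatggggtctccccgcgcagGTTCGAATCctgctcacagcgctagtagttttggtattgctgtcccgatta
The last windows are the 150 bases before a TSS, in the direction of the gene, with a TATA box (Ankrd2, a muscle ankyrin-repeat gene) or an ETS word (Specc1) in capitals. The member at Ankrd2 lies mostly upstream of its window and does not cover the TATA box. The CTCF, TATA and ETS windows were chosen after the values were seen.
Ankrd2, chr19:42035877-42036026: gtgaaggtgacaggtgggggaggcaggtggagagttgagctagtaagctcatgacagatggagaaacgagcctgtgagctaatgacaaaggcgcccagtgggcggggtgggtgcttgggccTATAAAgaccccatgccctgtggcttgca
Specc1, chr11:61956613-61956762: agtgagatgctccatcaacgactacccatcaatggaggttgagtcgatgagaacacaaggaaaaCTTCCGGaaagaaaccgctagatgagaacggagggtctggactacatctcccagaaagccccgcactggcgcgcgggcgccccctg

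Members were less often promoter peaks than MOF peaks with both marks. The centre of 413 members, 36.6% (33.8 to 39.5), lay within 1 kb of a TSS, against 77.2% (76.1 to 78.3) of peaks with both marks, 4.29% of those with H3K27Ac only and 3.17% of those with neither (background over all peaks compared, 31.2%). A window of 500 bp at the centre was CpG-rich (GC over 50%, observed to expected CpG over 0.6) at 32.3% of members (29.6 to 35.1), at 63.5% of peaks with both marks and at 2.24% of peaks with neither (background 25.5%). With only the stronger 50% of H3K4me3 peaks, the member shares were 55.1% (50.5 to 59.8) for promoters and 48.6% (43.9 to 53.3) for CpG-rich windows. The centre was intergenic for 552 members, 49.0% (46.0 to 51.9), in an intron for 31.7% and in an exon for 19.3%, of which 106 members lay in a coding exon. Over all peaks compared these shares were 44.9%, 38.4% and 16.7%, and 4693 of the 9378 peaks with neither mark were intergenic (49.0 to 51.1%). The intervals of members and of peaks with both marks did not overlap for promoters, CpG-rich windows or intergenic places. They overlapped for introns, 31.7% (29 to 34.5) against 32.5% (31.3 to 33.7).

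A part of the members lay on sequence that occurs at more than 1 place in the genome. At 194 members, 17.2% (15.1 to 19.5), over 50% of all 31-base words were found at several places of the assembly, against 38 of the 5992 peaks with both marks (0.634%) and 16.4% of peaks with neither (background 10.3%). For a read from such sequence the place in the genome can be uncertain, but the reads were longer than 31 bases and their placement was not measured. The repeated members had higher scores, with a median of 796 (736 to 917), and lay farther from H3K27Ac, with a median gap of 49266 bp. The part of repeated sequence in the lack of an H3K27Ac peak was not tested. Without these members and their counterparts, the promoter share was 37.2%.

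**Figure D1:**
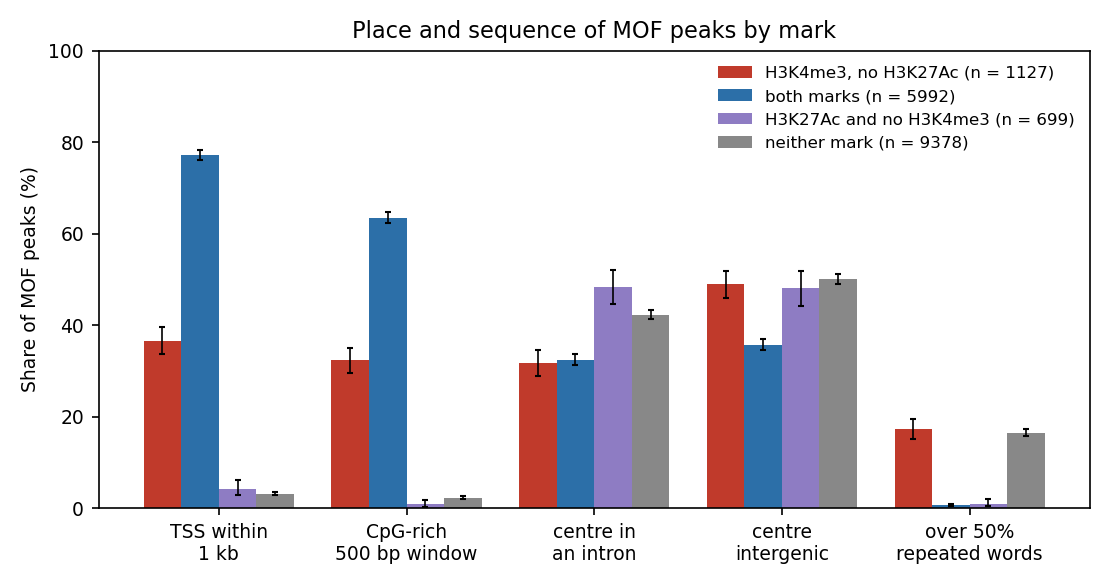
Share of MOF peaks (y axis, %) with a TSS within 1 kb, a CpG-rich window, a centre in an intron or between genes, or over 50% repeated 31-base words, for the 4 groups of MOF peaks. Bars are shares and lines their 95% Clopper-Pearson intervals. Members (red) lie between the other groups for promoters, at 36.6%, and near peaks without either mark for repeated words, at 17.2% against 16.4%.

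Members were spread over all 19 autosomes. They made up between 4.88% of MOF peaks (chromosome 7; 3.69 to 6.32) and 9.31% (chromosome 6; 7.51 to 11.4), and chromosome 17 had 9.30%. When the peaks were cut into 10 bins by score, members were between 4.65% and 7.38% of the first 9 bins and 10.6% (9.23 to 12.2) of the top bin, with scores of 1028 to 8069. Most members stood alone: 933 had no other member within 50 kb. Of the rest, 42 lay in 7 clusters of at least 4. The 2 largest clusters, with 9 and 7 members, lay at chr6:47739318-47778456 and chr6:47654842-47686543, the second at Rn4.5s, a gene for the 4.5S RNA of rodents, and in both every member had over 50% repeated words.

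Members were narrower than MOF peaks with both marks. The median width was 640 bp (595 to 691) against 966 bp (949 to 984), a ratio of 0.66. A wider peak has more bases in which to meet an H3K27Ac peak, so width is not wholly independent of the rule. The MOF score differed less, with a median of 615 (590 to 646) against 651 (645 to 651). Each listed region held 1 or more narrower core blocks. A core block lay on H3K4me3 at 1030 members, 91.4%, against 97.5% of peaks with both marks, and 3.99% of members had more than 1 block, near the 4.21% of all peaks compared, against 9.70% with both marks and 0.970% with neither.

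The H3K4me3 under members was also narrower, while its height differed less. The H3K4me3 peak of highest fold enrichment under each member had a median width of 571 bp (536 to 607), against 1331 bp for MOF peaks with both marks. Its median fold enrichment was 6.81 (6.63 to 7.17) against 7.93 (7.85 to 8.04), a ratio of 0.86. This order depended on the H3K4me3 list: with only the stronger 50% of H3K4me3 peaks the ratio was 1.11. H3K4me3 covered a median of 66.6% of a member and 96.9% of a peak with both marks. At promoters, the medians were 958 bp (886 to 1021) and 7.78-fold (7.37 to 8.21) for members, against 1445 bp (1424 to 1462) and 8.25-fold (8.16 to 8.33). Away from TSSs they were 426 bp (404 to 455) and 6.32-fold (6.30 to 6.77) for members, against 691 bp (660 to 729) and 6.67-fold (6.38 to 6.77). At CpG-rich promoters the fold enrichment was 8.21 (7.66 to 8.58) for members and 8.16 (8.06 to 8.26) with both marks. The difference in width was thus present on both sides of the 1 kb limit.

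**Figure D2:**
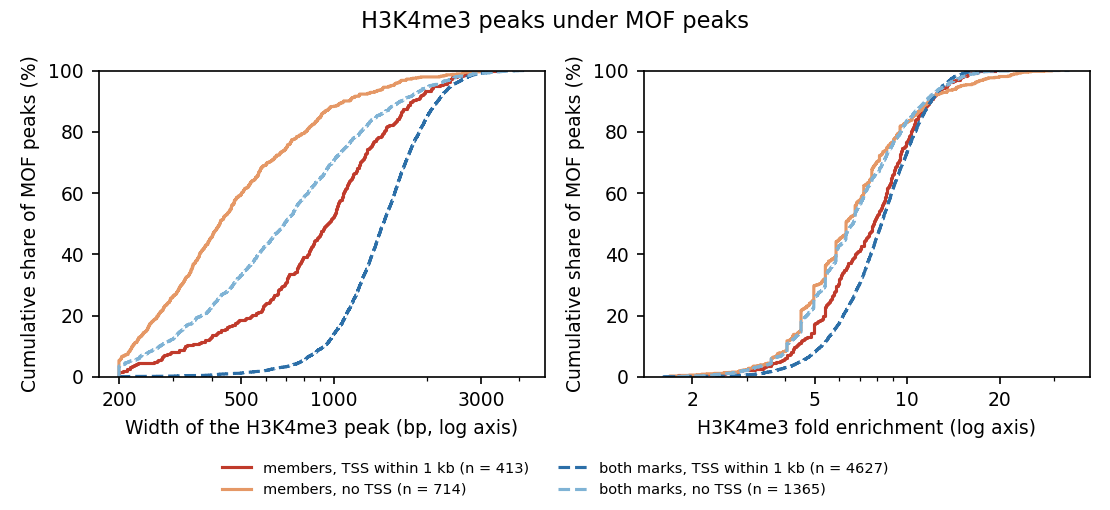
Cumulative share of MOF peaks (y axis, %) by the width (left, bp) and fold enrichment (right) of the highest H3K4me3 peak under them, both on log axes. Solid lines are members and dashed lines peaks with both marks. The width curves of members lie to the left of those of peaks with both marks, with medians of 958 against 1445 bp at promoters, while the fold enrichment curves run close together.

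Seen from the H3K4me3 list, MOF peaks were less common where H3K27Ac was missing. Of 9198 H3K4me3 peaks free of H3K27Ac, 1182 met a MOF peak, 12.9% (12.2 to 13.6), against 37.5% (36.8 to 38.2) of 17048 with H3K27Ac (background 28.9%). Among H3K4me3 peaks with a TSS within 1 kb the shares were 13.7% and 46.4%. They rose with the width of the H3K4me3 peak in both groups, from 10.6% under 500 bp to 26.4% (20.9 to 32.5) at 1500 bp or more without H3K27Ac, and from 16.7% to 55.2% with it. In each of the 4 width classes the share was lower without H3K27Ac, with intervals that did not overlap. H3K4me3 peaks free of H3K27Ac with MOF were wider than those without MOF, 492 bp (465 to 535) against 389 bp (382 to 398), and higher, 6.35-fold (6.30 to 6.76) against 5.43-fold (5.42 to 5.62).

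The distance of members from H3K27Ac ran from 1 bp to over 4 Mb. The median gap to the nearest H3K27Ac peak was 18601 bp (15999 to 21662), 158 members (14%) had one within 1 kb, and 195 (17.3%) had none within 100 kb. At 114 members, 10.1% (8.42 to 12), the H3K4me3 peak itself carried H3K27Ac outside the MOF peak. Those H3K4me3 peaks were wide, with a median of 1594 bp, and the median gap was 204 bp. At the edge of the rule, the members at Zfp758, Fam83h and Trim2 were 1, 3 and 3 bp from H3K27Ac, while the peaks counted with both marks at Rem2, Prickle1 and 3930402G23Rik overlapped it by 1, 2 and 2 bp. Likewise, the members at Acot5, Iffo2 and Ercc1 overlapped H3K4me3 by 2, 3 and 4 bp, and MOF peaks at Gadd45a, A230001M10Rik and Prrt3 missed it with gaps of 0, 5 and 10 bp. In all, 45 members had H3K27Ac within 100 bp and 22 overlapped H3K4me3 by at most 50 bp. The highest score of a member was 8069, and the lowest left out by the ceiling was 8225, at Mydgf.

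The H3K4me3 of promoter members varied with the gap to H3K27Ac. The 78 with H3K27Ac within 1 kb lay on the widest H3K4me3 of the 4 classes, with medians of 1414 bp and 5.93-fold, and 43.6% (32.4 to 55.3) were CpG-rich. The 136 with none within 50 kb lay on H3K4me3 of 854 bp and 8.42-fold, and 61.0% (52.3 to 69.3) were CpG-rich. The other 45 and 154 promoter members, at 1 to 5 kb and at 5 to 50 kb, had median widths of 933 and 922 bp and fold enrichments of 5.61 and 8.53, and 66.7% (51.0 to 80.0) and 60.4% (52.2 to 68.2) were CpG-rich. The CpG intervals of the classes overlapped.

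**Figure D3:**
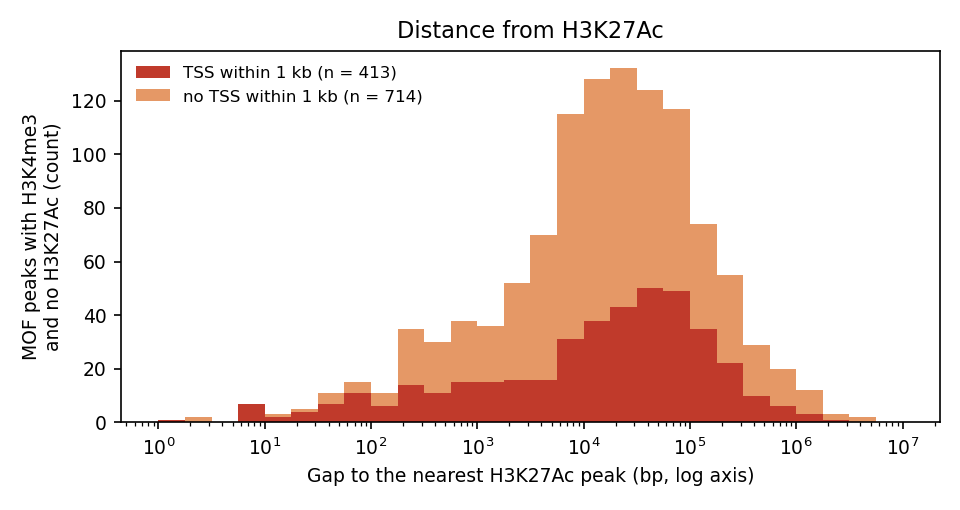
Number of members (y axis) by the gap to the nearest H3K27Ac peak (x axis, bp, log scale), as stacked bars for members with (red) and without (orange) a TSS within 1 kb. Most members lie between 1 kb and 1 Mb from H3K27Ac, around a median of 18601 bp, and a tail of 158 lies within 1 kb.

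By gene, 450 of 24952 autosomal genes had the centre of a member within 1 kb of a TSS, a background of 1.80%. They comprised 392 protein-coding genes, 40 lncRNA genes, 9 transcribed pseudogenes, 5 miRNA genes, 3 snRNA genes and 1 rRNA gene, and 38 members lay near 2 genes each. At 359 of the 450 genes no H3K27Ac peak fell within 1 kb of a TSS, at 91 one did, and 12 also had a MOF peak with both marks. Counted over all genes, MOF was present at 442 of 2721 genes (16.2%) with H3K4me3 and no H3K27Ac near a TSS and at 5858 of 11453 genes (51.1%) with both marks.

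Promoters of developmental regulators made up a small part of the members. Of 150 developmental transcription factor genes, 77 had H3K4me3 and 56 of those had no H3K27Ac, 72.7% (61.4 to 82.3) against 19.2% over all genes with H3K4me3. A member lay at 6 of the 150, 4.0% (1.48 to 8.50), an interval that includes the background of 1.80%. MOF was present at 9 of the 56 genes with H3K4me3 alone (16.1%), close to the background of 16.2%. The 6 were Neurog2, a neuronal fate gene (score 857), Hoxc10, a homeobox gene of the posterior body (780), Hoxb9 (706), Hoxa5 (499), Sox11, an HMG-box factor of neural progenitors (370), and Dlx6, a homeobox gene of face and limb (342). Hoxc10 had an H3K4me3 fold enrichment of 6.0 and lay 23392 bp from H3K27Ac, and Neurog2 had 5.42 and lay 78839 bp away. Hoxa5 and Hoxb9 were nearer to H3K27Ac, at 3227 and 10353 bp, while Sox11 was 872531 bp from the nearest peak.

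Of 91 developmental signalling genes, 33 had H3K4me3 without H3K27Ac, 44.6% (33.0 to 56.6) of those with H3K4me3, against 19.2% over all genes. MOF was present at 5 of the 33 (15.2%), and 4 of the 91 had a member at a TSS (4.40%; 1.21 to 10.9, which includes the background of 1.80%). The 4 were Fzd9, a Wnt receptor (score 823), Epha5, an ephrin receptor (633), Sfrp1, a secreted Wnt antagonist (571), and Ptch1, the Hedgehog receptor (290). The member at Epha5 lay 1646645 bp from any H3K27Ac, and the one at Ptch1 only 1184 bp. Of 86 neuronal genes, 40 had H3K4me3 alone, 83.3% (69.8 to 92.5) of those with H3K4me3, and 3 of the 40 had MOF (7.50%; 1.57 to 20.4). A member lay at 3 of the 86 (3.49%; 0.725 to 9.86, also with 1.80% inside), at Cplx1, a synaptic complexin (582), Ntrk2, the receptor of brain-derived neurotrophic factor (423), and Cdk5r1, the activator of a neuronal kinase (392).

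Markers of the cell types that skin can hold were counted in the same way. Over all 24952 genes, 14174 had H3K4me3 and 11453 had both marks. Of 61 epidermal genes, 48 had H3K4me3 and 40 had both marks. Of 38 dermal fibroblast genes, 21 had H3K4me3 and 9 both marks. For the other types the counts with H3K4me3 and with both marks were 8 and 4 of 14 melanocyte genes, 6 and 0 of 29 immune genes, and 6 and 0 of 26 endothelial and muscle genes. Members lay at 3 epidermal genes (4.92%; 1.03 to 13.7), 2 fibroblast genes (5.26%; 0.644 to 17.7) and 1 immune gene (3.45%), all with intervals that include 1.80%. At melanocyte genes and at endothelial and muscle genes there were 0, which allows shares of up to 21.4% and 11.5%. A mark carried by few cells and a weak mark in many cells cannot be told apart in a whole tissue, and the part of other cell types in the members was not tested.

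The fibroblast members were at Pdgfra (score 880, H3K4me3 6.75-fold, 89004 bp from H3K27Ac) and at Col1a2, a chain of type I collagen (736, 9.86-fold, 94415 bp). Both lay far from H3K27Ac. The immune member was at H2-Ab1, an MHC class II gene, with a score of 470 and 12.4-fold H3K4me3, 44293 bp away. Of the epidermal members, a pair lay close to H3K27Ac on wide H3K4me3. Krt14 (score 950) lay 432 bp downstream of the TSS on an H3K4me3 peak of 2421 bp and only 3.98-fold, with H3K27Ac at 1699 bp. Jup, the junction protein plakoglobin (634), lay 219 bp downstream on a peak of 2849 bp and 3.65-fold, with H3K27Ac at 2869 bp. Calml3, a calmodulin-like gene of epithelia (478), lay 149 bp upstream on a peak of only 348 bp, 12788 bp from H3K27Ac.

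Genes of the mitochondrial electron transport chain had no member. All 73 had both marks near a TSS and 51 of them had MOF there. Members lay at 0 of the 73 (a share of up to 4.11%, which includes the background of 1.80%). Of 79 ciliary genes, 74 had both marks and 38 had MOF, and 1 had a member (1.27%; 0.0320 to 6.85), Bbs1, a subunit of the ciliary BBSome, with a score of 357, 17.0-fold H3K4me3 and a gap of 21141 bp. Of 49 germline genes, 6 had H3K4me3, and 1 of the 49 (2.04%; 0.0517 to 10.9) had a member, Stag3, a meiotic cohesin gene (score 509, 9.98-fold), where the TSS nearest to the centre was that of Gpc2. A group for motile cilia held the Cfap genes, the axonemal dynein genes Dnah and Dnai, Ccdc39 and Ccdc65, and was chosen after its values were seen. Dnal1, named below, was not in it. Of its 50 genes, 23 had H3K4me3 alone, 65.7% (47.8 to 80.9) of those with H3K4me3, against 19.2% over all genes. MOF was present at 4 of those 23 (17.4%; 4.95 to 38.8), next to 16.2% over all genes. Members lay at 4 of the 50 (2.22 to 19.2%, against 1.80%), Cfap45, Ccdc65, Ccdc39 and Dnah8. Ccdc39 and Ccdc65 entered the group by name and both had a member, so the shares of this group are partly set by the choice of genes.

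Rfx2 met few members. It overlapped 4 of 1127, 0.355% (0.0968 to 0.906), against 161 of the 5992 peaks with both marks, 2.69% (2.29 to 3.13; background 0.960%). All 4 had a TSS within 1 kb, and among peaks with a TSS within 1 kb the shares were 0.969% (0.265 to 2.46) and 3.24% (2.75 to 3.79). They were at Ubb, a polyubiquitin gene (score 781), Cyth2, an exchange factor of ARF GTPases (499), Dnal1, an axonemal dynein light chain (494), and Map9, a microtubule-associated protein (312). Those at Cyth2 and Ubb lay 31 and 78 bp from H3K27Ac, and those at Map9 and Dnal1 lay 2841 and 37895 bp away, on H3K4me3 of 12.6-fold and 13.6-fold.

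Replication-dependent histone genes stood out among the gene families, which were all chosen after their values were seen. Members lay at 22 of these 67 genes, 32.8% (21.8 to 45.4), against the background of 1.80%. The members were fewer than the 22 genes, because a member at a shared promoter, as of H2ac7 and H2bc7, was counted for both genes. The interval treats such pairs as independent genes. Of the 67, 64 had H3K4me3, and 24 of these had no H3K27Ac (37.5%; 25.7 to 50.5, against 19.2% over all genes with H3K4me3). MOF was present at 20 of those 24 (83.3%; 62.6 to 95.3), next to 85.0% (70.2 to 94.3) of the 40 with both marks. The strongest were the shared promoter of H3c15 and H2ac19 (score 2228), H4c12 (1592), and the shared promoter of H2ac6 and H2bc4 (1339). A cluster of 6 such members spanned chr13:21715266-21832173, with scores of 691 to 1592, and 5 of the 6 had over 50% repeated words. Histone genes are near-identical copies, so the counts cannot be assigned to single copies with certainty. The gaps to H3K27Ac were often short, 7 bp at H3c15 and 891 bp at H2bc4.

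Other families were nearer to the background. Members lay at 9 of 394 Zfp genes (2.28%; 1.05 to 4.29) and 6 of 369 solute carriers (1.63%). They lay at 6 of 135 ion channel genes, taken by the names Kcn, Cacna, Cacnb, Cacng and Scn (4.44%; 1.65 to 9.42). They also lay at 3 of 40 histocompatibility genes (7.50%; 1.57 to 20.4) and 0 of 74 cytosolic ribosomal protein genes, which allows up to 4.05%. The ion channel members were at Cacna1s, Cacna1g, Cacng2, Kcnj11, Cacnb4 and Kcnh4, with scores from 330 at Kcnh4 to 773 at Cacna1s. They lay between 10647 and 66366 bp from H3K27Ac.

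Members at genes of small RNAs were few, and the snRNA share was above that of peaks with both marks. An snRNA gene, most of whose products belong to the splicing machinery, was overlapped by 12 members, 1.06% (0.551 to 1.85), against 0.250% (0.140 to 0.413) of peaks with both marks and 0.163% of all. Of the members, 6 formed a cluster at chr12:54709720-54739038, each over 1 copy of U1 snRNA, with scores of 611 at Gm22634 to 1254 at Gm22317 and H3K4me3 of 5.78-fold to 11.4-fold, and at all 6 over 50% of words were repeated. Rnu11, the U11 snRNA of the minor spliceosome, was the one with little repeated sequence (4.34%), and had a score of 1605 with H3K4me3 of only 2.61-fold. tRNA genes were overlapped by 12 members (1.06%; 0.551 to 1.85), 38 peaks with both marks (0.634%; 0.449 to 0.869) and 2 with neither (0.302% of all), so the intervals of members and of peaks with both marks overlapped. miRNA genes were overlapped by 4 members (0.355%; 0.0968 to 0.906), 0.517% of peaks with both marks and 0.262% of all. The n-TScga3 member had a score of 334 and 11.4-fold H3K4me3. The snRNA group includes Rnu3b1, a U3 gene, as the annotation types it (score 1140, 9.57-fold). No member overlapped a gene typed as snoRNA, which allows a share of up to 0.266%. The share was 0.180% over all peaks compared, below that limit, and 20 peaks with both marks (0.334%) overlapped such a gene. Pseudogenes were overlapped by 49 members, 4.35% (3.23 to 5.71), by 0.718% of peaks with both marks, by 2.62% (2.31 to 2.97) with neither and by 1.99% of all.

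Among members with a TSS within 1 kb, the 10 farthest from H3K27Ac were over 600 kb away. The gap was 2127501 bp at Gm14305, 1646645 bp at Epha5, 1171468 bp at Gm42303 and 1165385 bp at Speer4cos. It was 969844 bp at Asxl3, a Polycomb-associated gene, 878982 bp at Gm14326, 872531 bp at Sox11, 818646 bp at Foxp2, a forkhead gene of brain and lung, 719632 bp at Pcdh20, a protocadherin, and 684443 bp at Zfp978. In 4 of the 10, Gm14305, Speer4cos, Gm14326 and Zfp978, over 50% of words were repeated. The others had between 0 and 3.05% repeated words. Their scores were modest, from 357 at Asxl3 to 633 at Epha5, against the median of 615 over all members.

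The 10 widest members included those at Hspa1b and Hspa1a, which encode the inducible heat shock protein Hsp70, and at Fos and Egr1, which encode immediate early transcription factors. Their widths were 4182, 3869, 4138 and 4103 bp, and their scores 2014, 2688, 1217 and 1610. In all 4 the centre lay over 2 kb downstream of the TSS, from 2100 bp at Hspa1b to 2593 bp at Egr1. At Fos, a core block from 882 to 2818 bp covered most of the gene, H3K4me3 ran from 759 bp upstream to 1124 bp downstream of the TSS, and H3K27Ac lay upstream, with its near end 1189 bp before the TSS. Egr1 had 3 core blocks, the longest from 1289 to 2991 bp, and its H3K27Ac peaks ended 101 bp before the TSS and began 5004 bp after it. Hspa1b and Hspa1a are near-identical copies, and 49.5% and 42.4% of the words in these regions were repeated. Fos and Egr1 had 0.998% and 0%.

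**Figure D4:**
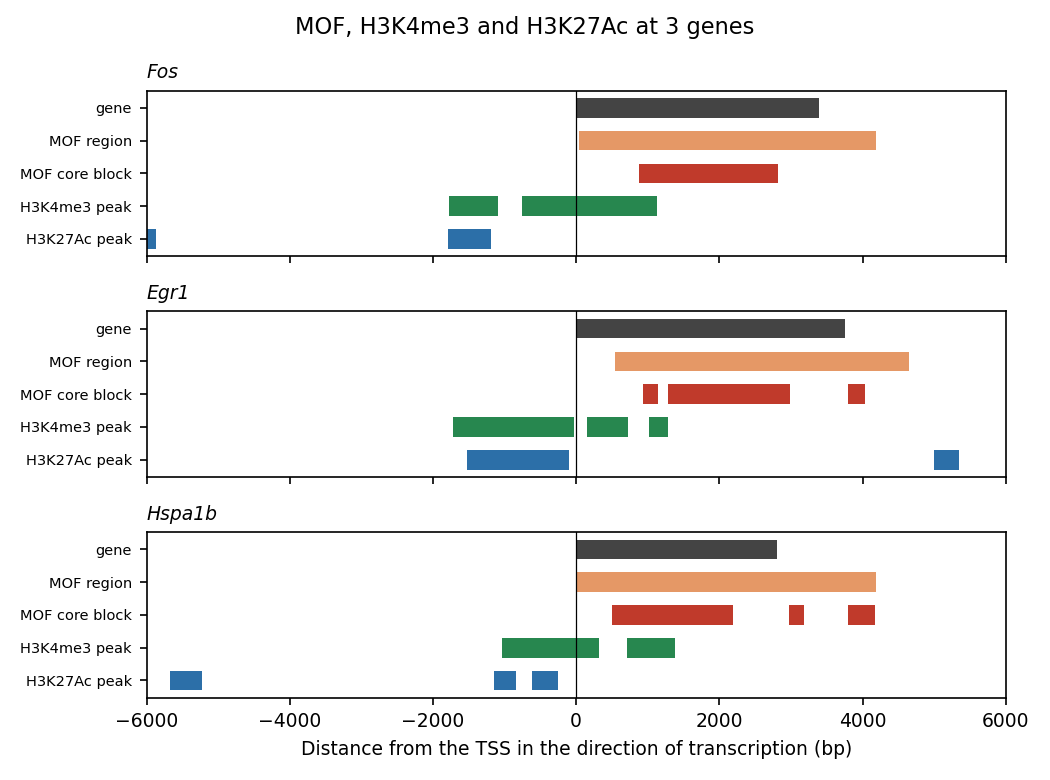
Maps of Fos, Egr1 and Hspa1b by distance from the TSS in the direction of transcription (x axis, bp). Bars show the gene, the MOF region, its core blocks, and H3K4me3 and H3K27Ac peaks. The longest MOF core block of each gene lies inside the gene body, from 882 to 2818 bp at Fos, and 1 shorter block at Egr1 and 2 at Hspa1b lie past the gene end. H3K4me3 peaks lie around the TSS and, at Egr1 and Hspa1b, also in the gene body, and H3K27Ac peaks lie upstream of the TSS and, at Egr1, also past the gene end.

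A further 5 of the 10 widest were of mixed kind. Of these, 1 lay at Mir6935 (4257 bp, score 572), 1 near Lyzl1 (4142 bp, 342) and 1 near Mir704 (3200 bp, 4404), the last 2 with over 50% repeated words, and the remaining ones at Mpped2 (3460 bp, 672) and inside Nfib, a factor of hair follicle stem cells (3135 bp, 812). Placement downstream of a TSS inside a gene, at 1 to 10 kb, was seen for 118 members, 10.5% (8.74 to 12.4), against 4.01% (3.52 to 4.53) of peaks with both marks, 8.73% of peaks with H3K27Ac only and 9.27% (8.69 to 9.87) of peaks with neither. Over peaks with no TSS within 1 kb, which alone can lie there, the shares of members and of peaks with both marks had overlapping intervals, 16.5% (13.9 to 19.5) and 17.6% (15.6 to 19.7), against 9.12% and 9.57% in the other groups. Among the 64 of these members with H3K27Ac within 5 kb were Egr3, an early growth response gene (score 904), Neat1, the RNA of paraspeckles (1443), Sox4 (443), Fzd7 (318) and Lor, which encodes the cornified envelope protein loricrin (423). Their H3K4me3 was low at Egr3, 2.23-fold, Fzd7, 2.53-fold, Neat1, 2.93-fold, and Sox4, 3.04-fold, and higher at Lor, 9.24-fold. These genes were picked after their values were seen.

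Runs of the telomeric word TTAGGG inside chromosomes were almost confined to members among the MOF peaks compared. A perfect run of at least 24 bases was present in 22 members (1.95%; 1.23 to 2.94), in 1 of 5992 peaks with both marks, in 2 of 9378 with neither and in 0 of 699 with H3K27Ac only, so that 22 of the 25 peaks with a run were members (88.0%; 68.8 to 97.5). These members had a median score of 1878 (1070 to 4485), against 610 (584 to 639) for the others, and a median H3K4me3 fold enrichment of 17.8 (9.93 to 22.2), against 6.77 (6.50 to 7.08). They were narrow, 356 bp, none had a TSS within 1 kb, and they lay a median of 74787 bp from H3K27Ac. The perfect runs of each of these members summed to a median of 120 bases, and 11 of the 22 members had over 50% repeated words. The member near 4930529K09Rik had a score of 8069 and 22.2-fold H3K4me3, and the one near Galnt5 had 5935 and the highest fold enrichment of all members, 31.1. At 4930559C10Rik the values were 5179 and 29.6-fold, and at Lama1, in an intron, 2404 and 27.9-fold. The lowest score, 676, was that of the member at Hsd11b1, and the lowest fold enrichment, 6.32, was shared by those near Gm20939 and Fcrl5.

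Over chromosomes 1 to 19 the assembly held 117 telomeric runs of at least 60 bases. H3K4me3 peaks overlapped 76 of them (65.0%) and MOF peaks of any score 40, of which 39 also had H3K4me3. H3K27Ac and Rfx2 peaks overlapped 0 each. The word was looked for on both strands. The part of repeated sequence in these peaks was not tested. The runs were searched for after the values were seen. Other short tandem repeats were less unequal: a run of any unit of up to 6 bases and at least 24 bases long was present in 17.6% of members, 602 of the 5992 peaks with both marks (9.30 to 10.8%) and 15.9% with neither.

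**Figure D5:**
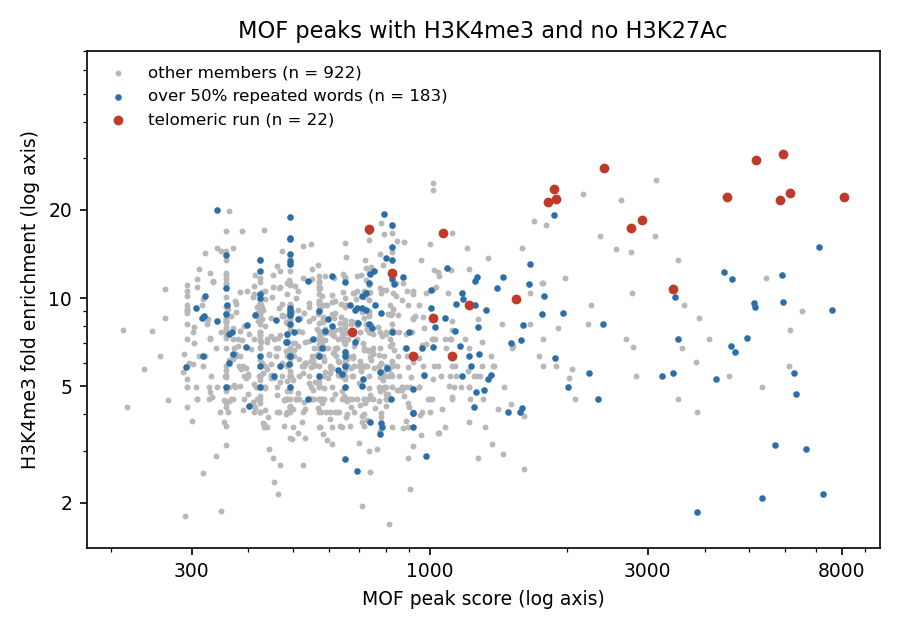
MOF score (x axis) against the fold enrichment of the highest H3K4me3 peak (y axis) for the 1127 members, both on log axes. Red points are the 22 members with a telomeric run, blue points the other members with over 50% repeated words, grey points the rest. Telomeric members reach 31.1-fold and a score of 8069, and 6 of the 10 highest fold enrichments are among them.

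The 10 highest scores otherwise fell mostly on repeated sequence. They ran from 6139 (near 2700054A10Rik) to 8069, 2 of them held a telomeric run, and 7 had over 50% repeated words. Only 1 of the 10 had a TSS within 1 kb, at Vmn2r29, a vomeronasal receptor gene (score 7134, 14.9-fold). Among them, 2 lay near Mir704 in the cluster of 9 on chromosome 6 (7609 and 6331). The 10 highest H3K4me3 fold enrichments, among members whose H3K4me3 was free of H3K27Ac, included 6 telomeric runs. The other 4 lay in an intron of Sos2 (25.3-fold, score 3135), between genes near Gm11217 (24.7-fold, 1015) and Kcnh5 (23.4-fold, 1015), and in an intron of Cdk5rap2 (22.8-fold, 2162).

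The promoters of members had fewer words of housekeeping promoter factors than those of MOF peaks with both marks. The RefSeq promoter, from 250 bp before to 50 bp after the TSS, was found for 311 of the 413 promoter members and 3761 of the 4627 promoter peaks with both marks. Every word was looked for on both strands. The ETS word CCGGAAG was present in 9.97% (6.87 to 13.8) of member promoters, 23.9% (22.5 to 25.2) of those with both marks and 8.86% of all 32851 promoters. The NRF1 word GCGCANGC was present in 10.6% (7.42 to 14.6), 25.4% (24 to 26.8) and 9.95%, and the YY1 word AANATGGCG in 1.61% (0.524 to 3.71), 8.0% (7.16 to 8.92) and 2.38%. For all 3, the interval of member promoters included the share of all promoters.

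The TATA box TATAAA went the other way, with 11.3% (7.97 to 15.3) of member promoters, 5.72% (5.0 to 6.51) of those with both marks and 13.6% of all. Here too the member interval included the share of all promoters, and the share with both marks lay below it. The GC box GGGCGGG differed little between the groups, 48.9% (43.2 to 54.6) and 52.2%, and was above the 25.6% of all promoters. The CCAAT box was in 35.0%, 39.2% and 37.4%. The same order was seen among CpG-rich promoters, where the ETS word was in 11.3% of members (7.04 to 16.9) and 25.5% with both marks, the YY1 word in 1.13% (0.137 to 4.02) and 8.63%, and the TATA box in 13.6% (8.88 to 19.5) and 5.93%. The share over all CpG-rich promoters was not counted. Of the promoters shown above, Ankrd2, with the TATA box, had a member of score 1130, 9527 bp from H3K27Ac, and Specc1, with the ETS word, one of score 999, 25358 bp away. A match of letters is not a bound site.

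Away from TSSs, members more often held the CTCF motif and less often the AP-1 word than MOF peaks with both marks. The CTCF motif lay within 300 bp at the centre of 44 of 714 such members, 6.16% (4.51 to 8.18), against 2.34% (1.61 to 3.29) of 1365 peaks with both marks and 2.21% of all peaks compared. Without members of over 50% repeated words it was 6.66% (4.78 to 8.99). The AP-1 word TGANTCA, common in epidermal enhancers, was in 6.86% (5.12 to 8.97) of these members, 12.2% (10.5 to 14.1) of peaks with both marks, 16.7% (14 to 19.7) of those with H3K27Ac only and 7.91% of all. For this word the member interval included the share of all peaks. The TSSs were those of curated RefSeq transcripts. With GENCODE transcripts added, 50.5% of all members and not 36.6% had a TSS within 1 kb, and the words were not recounted. Of the 2 CTCF members shown above, the one near Gnb1 had a score of 1521, H3K4me3 of 6.83-fold and H3K27Ac at 33 bp, and the one near Gm43568 a score of 1378, 5.87-fold and a gap of 17339 bp. These 714 members had CpG-rich windows about as often as their counterparts, 17.4% (14.7 to 20.3) against 15.2% (13.3 to 17.2), and a coding exon at the centre more often, 6.44% (4.76 to 8.50) against 3.0% (2.16 to 4.05), though the share over all peaks compared was 6.73%.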

How the data were processed

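Peak lists of total epidermis from P0.5 Wildtype mice were used for MOF (ChIPseq, single-end) and for H3K4me3, H3K27Ac and Rfx2 (Cut&Run, paired-end), 1 list per antibody of the 6 antibodies and 8 samples in the series. The other libraries were not used here. The authors aligned reads to mm10 with Bowtie2 and called peaks with MACS2 in each library, in paired-end mode for Cut&Run and without a shift model for MOF. The tool versions and the read numbers of each library stand in the study's reporting summary and are not repeated here. Control libraries, blacklists and the threshold of the MOF list are not given in the sources used here. The H3K4me3 list belongs to the repeat library but does not carry its mark in its name. The deposited MOF list holds more peaks than the study's reporting summary states, and the filter between them is not given there. The MOF list, as deposited, gives a score whose scale is not stated, and its narrower blocks within broad regions. The other deposited lists give a fold enrichment (a ratio over the local background) and a −log10 q-value.

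Overlaps were counted from 1 bp. TSSs came from curated RefSeq transcripts of GRCm38.p6, and the place of a peak is that of its centre. Gene windows were 1 kb on either side of a TSS. Sequence, promoter windows, 31-base words and tandem runs were read from the same assembly (Python 3.11.15, numpy 2.4.6, pandas 2.3.3, scipy 1.17.1). Intervals cover counting error only. The overlap, distance, interval and word counts were tested on simulated data. Members named are the 10 highest by MOF score, by H3K4me3 fold enrichment free of H3K27Ac, by width and by distance from H3K27Ac with a TSS within 1 kb, those that overlap Rfx2, and up to 6 per gene list by score. One of the widest is not reported here. The members and lists were chosen with earlier results of these data known, and the gene families, words, telomeric runs, clusters and genes downstream of TSSs after values were seen. Alternatives varied the overlap, the distance to H3K27Ac, the stronger 50% of each list, the score ceiling, repeated sequence, and the TSS and CpG definitions.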

Additional observations from a re-analysis of the deposited data

Results flagged for a closer look

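In all, 90 MOF peaks met the rule on marks but lay outside the comparisons. On chromosomes 1 to 19, 55 peaks with H3K4me3 and no H3K27Ac had a score of 8100 or more, with a median of 19771. Of these, 40 had over 50% repeated words, 0 had a TSS within 1 kb, and 11 (10.4 to 33.0%) held a telomeric run, against 1.95% of members. Chromosome X had 26 peaks with H3K4me3 and no H3K27Ac, 13.2% of its 197 MOF peaks, counted without a score ceiling, against 6.84% on the autosomes counted in the same way. Of the 26, 11 had a TSS within 1 kb and 4 had over 50% repeated words, and their median score was 664. They included promoters of Rnf128, a ubiquitin ligase (score 571, H3K4me3 12.7-fold), Klf8 (736, 11-fold) and Pof1b, an actin-binding protein of epithelia (494, 5.78-fold), and, 30 bp from H3K27Ac, Ogt, the O-GlcNAc transferase (494, 4.97-fold). Chromosome Y had 8 such peaks, 13.8% of its 58, 6 of them with over 50% repeated words, and the mitochondrial genome had 1. No control sample was used here and no test was made of these sets.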

How the results depend on the processing

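Of 54 alternatives with a value, 29 moved by less than the 95% interval, 24 moved further and 1 turned the direction. The width ratio of members to peaks with both marks stayed between 0.63 and 0.72 in all 7 alternatives run on it. The ratio of H3K4me3 fold enrichment, 0.86, became 1.11 with the stronger 50% of H3K4me3 peaks, and the score ratio, 0.94, became 0.90 without peaks of over 50% repeated words, 1.0 with the higher 50% of MOF scores and 0.99 with no score ceiling or with the stronger 50% of H3K4me3 peaks. The cause of these changes was not tested. For a share of 6.55% of MOF peaks, 36.6% with a TSS, 89.9% with H3K4me3 free of H3K27Ac and 32.3% CpG-rich, an overlap of at least 50% of the shorter peak gave 7.27%, 42.8%, 78.2% and 35.3%. The stronger 50% of H3K4me3 peaks gave 2.66%, 55.1%, 81.4% and 48.6%, and the stronger 50% of H3K27Ac peaks 11.6%, 44.2%, 95.5% and 36.0%. The higher 50% of MOF scores gave 7.24%, 32.6% and 91.9% for the first 3. With no H3K27Ac within 1 kb the first was 5.64% and the third 99%, and without repeated peaks the first was 6.05%. The TSS share was 27% at 500 bp, 44.6% at 2.5 kb, 33.1% with protein-coding transcripts only and 50.5% with GENCODE transcripts added, an alternative chosen after seeing the data. The stricter CpG definition gave 23.3%. No paired analysis was possible because only 1 list of each antibody was used. The lists hold no read counts, so a missing H3K27Ac peak shows only that none was called.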
